A study of Mus musculus with 6 samples.

Results

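Open chromatin was described at 9 mouse genes of cytokine signalling: the transcription factor genes Stat3, Stat4, Stat5a, Stat5b and Stat6, and the feedback inhibitor genes Socs1, Socs2, Socs3 and Cish. The measurements were peak lists from ATAC-seq, an assay in which the Tn5 transposase cuts accessible DNA, made from 6 libraries of peripheral blood. A peak was assigned to a gene when its summit lay in the gene body or within 3 kb of one of the gene's annotated starts. Peaks of different libraries that shared 1 bp were joined into a region. By this rule the 9 genes, of 78252 annotated, held 35 of 62876 regions, and 15 of these were among the 23970 regions with a peak in all 6 libraries, called shared regions here.

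Of the libraries, 3 were controls and 3 belonged to high-altitude de-acclimatization (HADA). Per the study's methods, all mice were male C57BL/6j. HADA mice lived for weeks in a hypobaric chamber at the oxygen of high altitude and were then returned to normoxia, whereas controls stayed in normoxia. The cells were unsorted leukocytes left after red cell lysis, so each library is a mixture of cell types. The results text of the study names them peripheral blood mononuclear cells instead, a preparation poor in neutrophils, and values at neutrophil genes depend on which holds. The day of sampling for ATAC-seq is not given in the sources used here. The labels do not say whether each library came from 1 mouse, so the p-values measure the spread between these libraries.

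Cytokines that bind receptors without a kinase of their own activate the associated Janus kinases, which phosphorylate STAT proteins. The STATs pair, enter the nucleus and bind DNA at the gamma-activated site (GAS), which is spelled TTCNNNGAA, or at the same palindrome with 1 more base in the middle. Among the genes they switch on are SOCS genes and Cish, whose products bind receptors and kinases and end the signal. In leukocytes, Stat3 serves interleukin-6 and interleukin-10 signals, Stat4 interleukin-12, Stat5a and Stat5b the interleukin-2 family and growth factors, and Stat6 interleukin-4.

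GAS motifs at the inhibitor genes are printed below because STATs are known to induce these genes through such sites. The set is not complete: the regions also hold a Socs2 GAS at -830 bp and one at 27464 bp from the canonical start, and a Cish site of the wider spacing at -221 bp. All are GRCm39 sequence in the direction of the gene, with GAS sites, in either spacing, in capitals. Cish pair 1 is at chr9:107173853-107173882 (+), Cish pair 2 at chr9:107173961-107173990 (+), and the Socs2 pair at chr10:95252761-95252790 (-), each in sequence annotated as UTR of its gene. The Socs3 sites are at chr11:117860328-117860356 (-) and chr11:117860055-117860083 (-), centred at -219 and 54 bp from the canonical start. The Socs1 stretch is at chr16:10603946-10604055 (-), upstream of the start, and its sites have the wider spacing. A Socs1 site of the standard spacing is at chr16:10603835-10603863 (-), centred 26 bp from the start in UTR.
Cish pair 1: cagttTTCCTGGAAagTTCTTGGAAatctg
Cish pair 2: ggTTCTAGGAAgatgaggcTTCCGGGAAgg
Socs2 pair: gcggaTTCCTGGAAagTTCCTGGAAagcgg
Socs3 upstream site: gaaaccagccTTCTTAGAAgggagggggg
Socs3 downstream site: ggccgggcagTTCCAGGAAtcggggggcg
Socs1 upstream sites: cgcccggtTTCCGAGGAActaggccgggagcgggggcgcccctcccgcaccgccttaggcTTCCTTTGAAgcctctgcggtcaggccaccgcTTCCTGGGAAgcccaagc
Socs1 site at the start: gctagccgggTTCCAAGAAgggtcgagat
The cores of the Socs2 pair and Cish pair 1 each span 20 bases and differ by 1 base, C15T, with the Socs2 base first and positions counted from 1 at the 5′ end of the core. A tandem of this spacing, with 2 GAS sites parted by 2 bases, was searched on both strands within 100 bp of the summit. It was found in 4 of the 62876 regions, and 2 of these were the start regions of Socs2 and Cish. The spacing searched is that of the pairs printed above, so the hits at Socs2 and Cish were fixed in advance and measure no enrichment. A single GAS in the same window was present in 6.11% of all regions and in 2 of the 35 regions at the 9 genes, again those of Socs2 and Cish. The Socs1 and Socs3 sites lay inside their regions but farther than 100 bp from the summit. A match of letters describes the sequence and is not evidence of binding.

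The summit pileup, which is the number of fragments stacked at the highest point of a peak, was solved from the fold and p-value that the peak caller gave. Shared regions had a median pileup of 58, 55 and 49 in the control libraries and of 92, 77 and 81 in the HADA libraries. Values were therefore compared as log2 pileup relative to the median shared region of the same library, and a difference is relative to that median. The lists held 34045 to 41475 peaks in control and 44401 to 45799 in HADA. The 9 genes held 27, 21 and 20 peaks in control and 29, 27 and 28 in HADA, or 5.83 ± 0.709 and 6.26 ± 0.237 per 10000 peaks (SD, n = 3 each). These ranges overlapped (two-sided exact permutation test, p = 0.4). The difference of 0.43 was 0.066 without control 2. It was 0.774 without control 1, 1.35 with peaks of a −log10 q of 10 or more and 1.37 with equal numbers of strongest peaks, and in each of these cases every HADA library was above every control library (exact permutation p = 0.1, the smallest that 3 against 3 or 2 against 3 can give).

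At the 15 shared regions, 2 were higher and 2 lower in HADA by limma at an adjusted p of 0.05, beside 18.6% of all shared regions higher and 24.8% lower. Among shared regions within 1 kb of a start, the kind to which the 9 start regions belong, 22.2% were higher and 10.7% lower. Of the 15 regions, the higher ones were the starts of Stat4 and Socs2, and the lower ones were the start of Socs3 and an intron of Stat4. All 4 kept their direction when any single library was left out. Without HADA 2 or without HADA 3, however, none of the 15 passed (limma; lowest adjusted p 0.0693 and 0.0582, with 2 higher and 1 lower and with 2 higher and 2 lower at an unadjusted p under 0.05), and without HADA 1 the Stat4 start and Socs3 alone did. Calls over all shared regions fell too, to 1506 higher and 3100 lower of 24615 without HADA 2, 2130 and 4187 of 24491 without HADA 3 and 2346 and 3979 of 24589 without HADA 1. The median difference over the 15 regions was 0.00 on the log2 scale, and the groups did not overlap at 6 of the 15, beside 60.7% of all shared regions. Since the assay is of bulk blood, fewer cells of a type and less open chromatin per cell cannot be told apart. Of all called shared regions 42.8% were higher, against 56.1% after quantile normalization and 56.8% by the fold rank. With pileups divided by the library background this share was 64.1%, and the median of all shared regions stood at 0.33. On that scale 4 regions of the 9 genes were higher and 1 lower, beside 31.9% and 17.9% of all shared regions. By the alternative of ranking regions by the caller's fold over local background, 1 region at these genes was higher and 0 were lower (limma; 2 and 1 at an unadjusted p under 0.05), beside 7.64% and 5.82% of all shared regions.

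**Figure D1:**
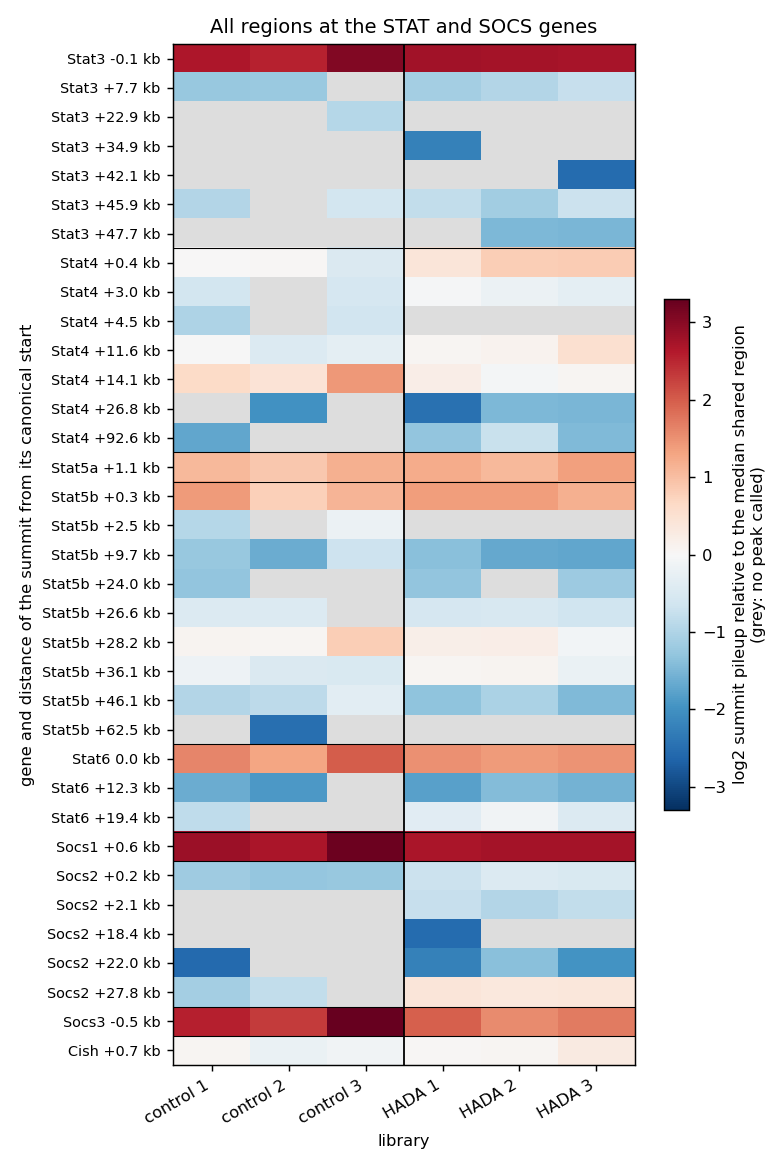
Log2 summit pileup of the 35 regions (rows, with the distance of the summit from the gene's canonical start in kb) in the 6 libraries (columns), relative to the median shared region of the library; grey marks a library with no peak called. The start regions of Stat3, Socs1 and Socs3 are the tallest, and grey cells occur only at Stat3, Stat4, Stat5b, Stat6 and Socs2.

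Most of the 35 regions outside the starts were weaker and were not called in every library. A peak was present in more HADA than control libraries at 16 regions and in more control than HADA libraries at 4, beside 35.5% and 22.7% of all regions. The HADA libraries had the taller shared peaks, and how far this sets the presence of weak peaks was not tested. Exactly 1 region was called in 3 of 3 HADA and 0 of 3 control libraries, in an exon of Socs2 and 2123 bp from its canonical start, beside 7.01% of all regions. No region had the opposite pattern, beside 1.88% of all regions. The Socs2 region lost this pattern when peaks were held to a −log10 q of 10 or more, where the 3 regions of HADA alone were at Stat3, Stat4 and Stat6, and when summit windows were merged, where the only one was at Stat6. Without control 1 the count of regions of HADA alone was 4, beside 7165 of all 61740 regions. It was 2 without control 2, beside 5026 of 59429, and 2 without HADA 1, beside 5605 of 61331. Without control 2 there were also 2 regions of control alone, beside 1776 of 59429.

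The 9 start regions covered a wide range of heights, and a summit height does not scale with the length of a gene or region. In the control libraries Socs1 (2.91 ± 0.28 on the centred log2 scale, SD, n = 3, as for the values that follow), Socs3 (2.81 ± 0.66) and Stat3 (2.75 ± 0.27) stood highest, and their ranges overlapped. Stat6 followed at 1.65 ± 0.35, then Stat5b at 1.10 ± 0.31 and Stat5a at 1.04 ± 0.14. Cish at -0.09 ± 0.15, Stat4 at -0.14 ± 0.29 and Socs2 at -1.24 ± 0.05 came last.
In control the range of Stat5b overlapped those of Stat6 and Stat5a, which were apart from each other, those of Cish and Stat4 overlapped, and Socs2 lay below all others. In the HADA libraries Stat3 (2.75 ± 0.03) and Socs1 (2.73 ± 0.03) overlapped at the top, and Socs3 was apart from them at 1.75 ± 0.22. Stat6 at 1.47 ± 0.06 came next, above Stat5b at 1.32 ± 0.12 and Stat5a at 1.21 ± 0.15, whose ranges overlapped. Stat4, at 0.68 ± 0.25, lay above Cish, at 0.13 ± 0.13, in every HADA library. Socs2 was still the lowest, at -0.55 ± 0.13.

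**Figure D2:**
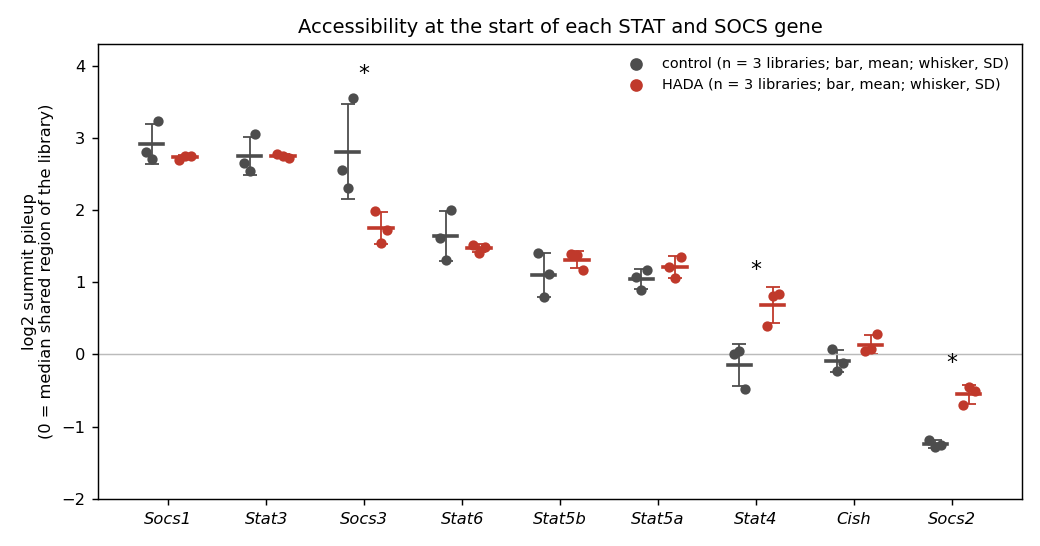
Log2 summit pileup at the start region of each of the 9 genes relative to the median shared region of the library; points are libraries (grey, control; red, HADA; n = 3 each), bars are means, whiskers are SD and asterisks mark a limma adjusted p under 0.05. Stat4 and Socs2 have all HADA points above the control points and Socs3 has all of them below.

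Stat4 was the STAT gene with called differences, and they went in both directions within the gene. Its start region, chr1:52047365-52048350 in an exon, had pileups of 58, 57 and 35 in control and 121, 136 and 145 in HADA. All HADA libraries were above all control libraries, also after centring. The difference was 0.82 ± 0.21 (log2, SE), or 1.77-fold, with an adjusted p of 0.0147 by limma. On the fold rank the difference was 0.68 with an adjusted p of 0.0936.

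The intron region 14070 bp downstream of the Stat4 start, chr1:52061233-52061948, was relatively lower in HADA. Control pileups there were 91, 75 and 135, and HADA pileups 108, 74 and 85. These raw pileups overlapped, and the groups separated once each library was centred, with control 3 highest. The region fell by 0.76 ± 0.25 (log2, SE; limma adjusted p = 0.0374). When pileups were divided by the library background and not centred, the difference was -0.39 with an adjusted p of 0.242. The sequence around its summit, chr1:52061422-52061587 (+), is shown because this is the region of Stat4 that was lower, and the stretch was drawn out to take in 1 site of the wider spacing, in capitals, 103 bp from the summit.
Stat4 intron 14 kb: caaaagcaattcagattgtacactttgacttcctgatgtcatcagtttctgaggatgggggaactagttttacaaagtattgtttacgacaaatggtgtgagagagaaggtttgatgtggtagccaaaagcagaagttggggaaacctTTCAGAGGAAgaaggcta

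A neighbouring intron region, chr1:52058608-52059436, had pileups of 57, 40 and 39 in control and 97, 83 and 117 in HADA. Its centred difference was 0.50 ± 0.20 (limma adjusted p = 0.0721), and on the fold rank it was the 1 region of the 9 genes that passed, at 0.94 with an adjusted p of 0.0428. These regions belong to 1 gene and 1 list per library, and a ratio of pileups inside a library needs no scaling between libraries.
The log2 ratio of the Stat4 start to the 14 kb region was -0.64, -0.39 and -1.92 in control and 0.16, 0.87 and 0.76 in HADA. The ratio of the neighbouring intron region to the 14 kb region was -0.67, -0.89 and -1.77 in control and -0.15, 0.16 and 0.46 in HADA. In both ratios every HADA library was above every control library. The regions were chosen with their differences known, so these ratios are a description and carry no test.

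The other 4 regions of Stat4 were not called in every library. The region 3035 bp from the start was called in control 1, control 3 and the HADA libraries, but the 50 bases at its summit have 2571 copies across the genome, and its height may pool reads of many copies. At each of the other 34 regions these 50 bases are unique. The region at 4544 bp was called in control 1 and control 3 alone, with pileups of 28 and 31. Regions at 26780 bp and 92574 bp were called in all HADA libraries and in 1 control library each.

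**Figure D3:**
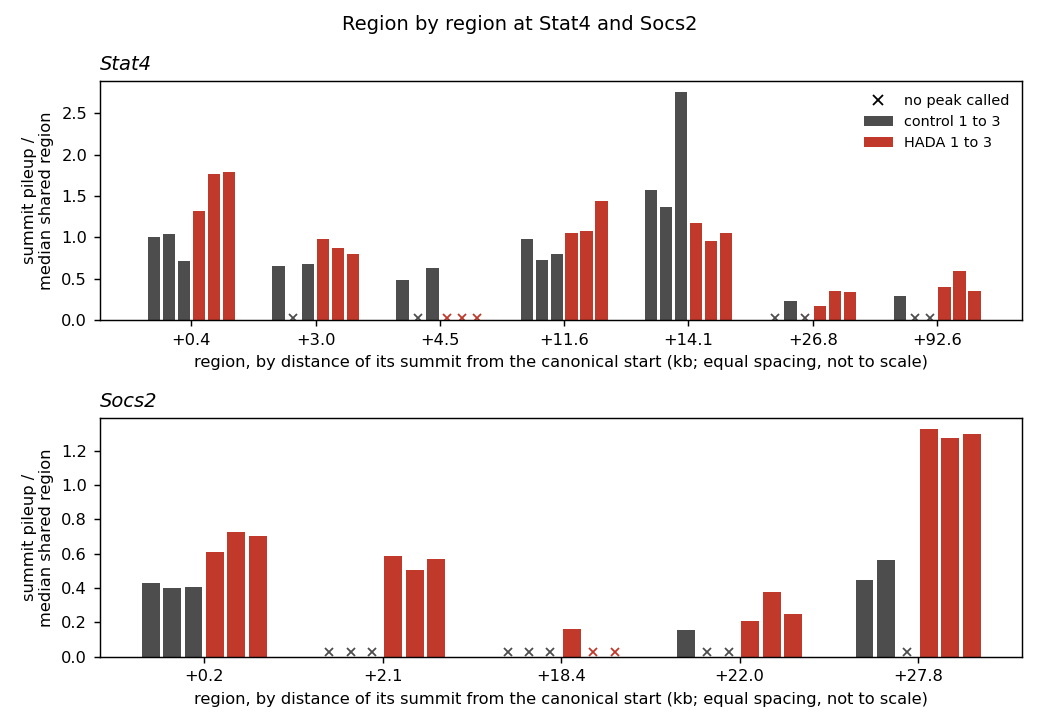
Summit pileup divided by the library's median shared pileup, for each region of Stat4 (top) and Socs2 (bottom) in order of distance from the canonical start (kb, equally spaced), in control 1 to 3 (grey) and HADA 1 to 3 (red); a cross marks no peak called. At Stat4 the red bars are taller at the start and shorter at the region 14070 bp downstream, and at Socs2 they are taller at the start and at the region 27796 bp downstream.

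No shared region of Stat3, Stat5a, Stat5b or Stat6 passed the test. The Stat3 start region, chr11:100829604-100831021, which lies 73 bp upstream of the canonical start, had pileups of 371, 324 and 413 in control and 638, 521 and 541 in HADA. Relative to the library medians the groups overlapped, with a difference of 0.00 ± 0.16 (log2, SE; limma adjusted p = 0.995). Under quantile normalization the difference was 0.26 with an adjusted p of 0.0174, beside 25% of all shared regions higher. The remaining 6 regions of Stat3 were called in 1 to 5 libraries, and 3 of them in no control library.

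Stat5a and Stat5b lie next to each other on chromosome 11 and encode closely related factors. Stat5a had a single region, chr11:100750780-100751805, with pileups of 123, 103 and 111 in control and 215, 162 and 209 in HADA. The Stat5b start region, chr11:100740836-100742065, had 155, 96 and 107 in control and 243, 202 and 184 in HADA. After centring both overlapped between groups, with differences of 0.17 ± 0.15 and 0.21 ± 0.18 (limma adjusted p = 0.379 and 0.353).
The log2 ratio of Stat5a to Stat5b also overlapped between groups (exact permutation p = 1, also when adjusted over 8 ratios computed). Stat5b had 4 further shared regions, with differences of -0.54 to 0.37 and adjusted p from 0.0988 to 0.452. Of these, the groups were apart only at the intron region 46063 bp from the start, where HADA was below.

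The Stat6 start region, chr10:127477772-127479965, had pileups of 180, 138 and 200 in control and 265, 206 and 228 in HADA. The difference was -0.18 ± 0.18 (limma adjusted p = 0.453), and the centred groups overlapped. A region beyond the 3′ end of Stat6, whose summit lies 2994 bp from an annotated start and so just within the 3 kb rule, was called in control 1 at a pileup of 32 and in HADA at 71, 71 and 59. Just outside the rule, 5255 bp from a Socs3 start, chr11:117854100-117854758 had pileups of 160, 145 and 247 in control and 165, 134 and 140 in HADA. A further region on the other side of Socs3, 6230 bp from a start, had 36, 24 and 40 in control and 59, 51 and 44 in HADA.

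Socs2, an inhibitor best known for limiting growth hormone signalling through Stat5, had the weakest start region of the 9 genes, and 4 of its 5 regions were called in more HADA than control libraries, beside the 35.5% of all regions given above. The region at its start, chr10:95252274-95253899 in an exon, had pileups of 25, 22 and 20 in control and 56, 56 and 57 in HADA. HADA libraries were all above control, and the 3 values of each group were close together. The difference was 0.69 ± 0.20 (log2, SE), or 1.61-fold, with an adjusted p of 0.0235 by limma.

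The fold over local background at the Socs2 start did not show the same direction. The local background solved at this peak was 4.28, 3.80 and 2.52 in control and 12.7, 11.7 and 13.0 in HADA. The deposited fold was accordingly 4.93, 4.79 and 5.96 in control and 4.16, 4.51 and 4.15 in HADA, with HADA below control. The difference in fold rank was -0.40 (adjusted p = 0.228). Both the summit and the sequence around it were thus higher in HADA, and the surroundings by more.

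The region 2123 bp from the Socs2 start, chr10:95250294-95251978, is part of those surroundings. It was called in the HADA libraries alone, with pileups of 54, 39 and 46. The intron region 27796 bp from the start, chr10:95224821-95225610, had pileups of 26 and 31 in control 1 and control 2, no peak in control 3, and 122, 98 and 105 in HADA. Raw median shared pileups were also higher in HADA (92, 77 and 81) than in control 1 and control 2 (58 and 55). Every raw HADA pileup at this intron region was above both control pileups. Among regions called in at least 2 libraries of each group, its difference was 1.34 ± 0.20 (limma without control 3, which had no peak there; adjusted p = 0.00524), beside 19.5% higher and 23.6% lower of the 31064 regions in that fit.
The sequence around that summit, chr10:95225101-95225251 (-), is shown because it carried the largest such difference at the 9 genes, and no GAS of either spacing lies in this stretch, the nearest in the region being 332 bp from the summit.
Socs2 intron 28 kb: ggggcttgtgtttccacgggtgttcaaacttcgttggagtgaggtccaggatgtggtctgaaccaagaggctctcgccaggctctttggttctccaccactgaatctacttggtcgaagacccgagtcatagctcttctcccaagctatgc

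Socs3, the inhibitor of interleukin-6 and granulocyte colony-stimulating factor receptors, had 1 region, chr11:117859253-117861342, which spans its start and both sites printed above. It had pileups of 346, 277 and 586 in control and 366, 227 and 270 in HADA. The raw pileups overlapped, but every HADA library was below every control library relative to its median, and control 3 was far above the other two control libraries. The region fell by 1.06 ± 0.29 (log2, SE), to 0.481 of control, with an adjusted p of 0.0191 by limma. Without control 3 the difference was -0.73 (adjusted p = 0.00347). With pileups divided by the library background and not centred, the difference over all libraries was -0.69 (limma adjusted p = 0.0112), and the groups overlapped.
The local background at Socs3 was 51.5, 40.7 and 77.6 in control and 51.2, 31.6 and 34.1 in HADA. It moved with the summit, and the fold rank differed by 0.01 (adjusted p = 0.961).

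Socs1, an inhibitor of interferon and common gamma-chain cytokine signalling, had 1 region, chr16:10602454-10604388. It had pileups of 413, 363 and 468 in control and 603, 524 and 551 in HADA. After centring the groups overlapped, with a difference of -0.18 ± 0.16 (limma adjusted p = 0.395). Cish, which is induced by Stat5 and damps T cell receptor and interleukin-2 signals, had 1 region, chr9:107172993-107174412, with 61, 47 and 45 in control and 95, 81 and 99 in HADA. Its difference was 0.23 ± 0.18 (limma adjusted p = 0.317), and the centred groups overlapped.

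**Figure D4:**
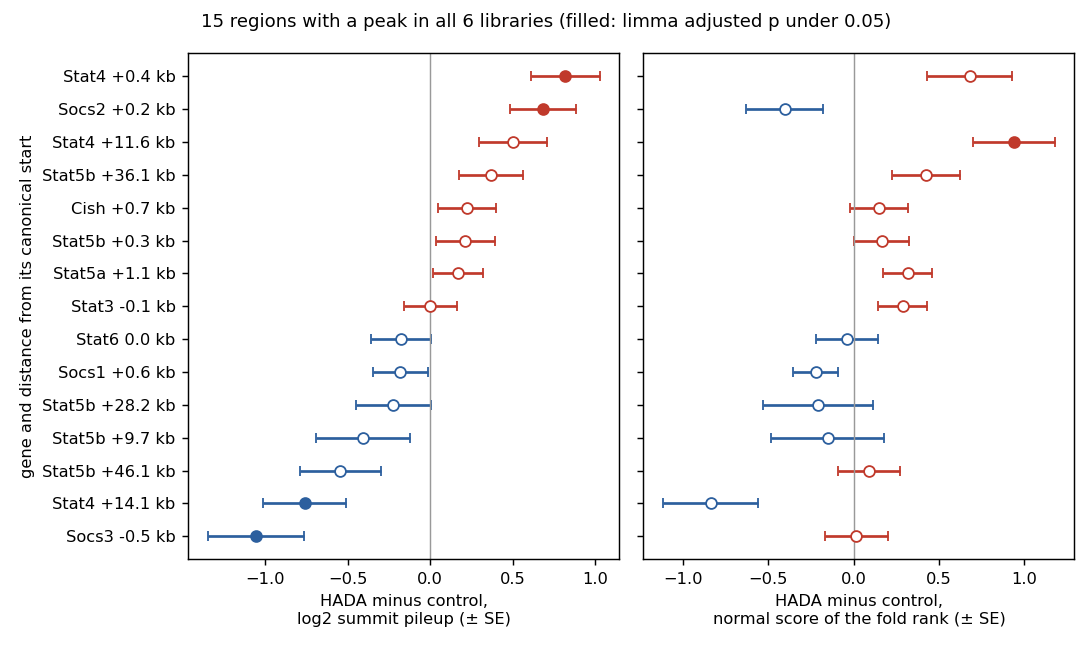
HADA minus control at the 15 shared regions of the 9 genes by log2 summit pileup (left) and by the normal score of the fold rank (right), as limma estimates with SE; filled symbols have an adjusted p under 0.05. By pileup the Stat4 start and the Socs2 start stand highest and the Stat4 intron region at +14.1 kb and Socs3 lowest, whereas by fold rank Socs2 is below 0 and Socs3 at 0.01.

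The summits of the start regions of Stat3, Stat5a, Socs1, Socs2, Socs3 and Cish also lie within 3 kb of a start of another, predicted or unnamed gene, for example that of 5730420D15Rik 37 bp from the Socs2 summit. Accessibility has no strand, so these starts cannot be told apart.

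The wider pathway was read from a list of 66 genes, 53 of which had a start region shared by all libraries. Of these, 11 were higher, 8 were lower and 34 passed in neither direction, beside 22.2% higher and 10.7% lower among all shared regions within 1 kb of a start. The median difference was -0.08 (log2). Among the Janus kinases only Tyk2, the partner of interleukin-12 and interferon receptors, was higher (0.58 ± 0.14), and on the fold rank it did not pass, at 0.40 with an adjusted p of 0.0717, while Jak1 was at -0.11, Jak2 at -0.08 and Jak3 at 0.06. Stat2, which serves type I interferon signals, did not pass, at 0.19, but on the fold rank it did, at 0.76 with an adjusted p of 0.0327. Of the 4 other SOCS genes, Socs6 alone was higher (0.53 ± 0.17, with 0.20 on the fold rank, where none of the 4 passed by limma and 1 had an unadjusted p under 0.05), a gene named after its value was seen. None of 10 other inhibitors, such as the PIAS proteins and tyrosine phosphatases, passed (limma; 2 at an unadjusted p under 0.05, and 1 higher and 1 lower by the fold rank). Without HADA 2 the list had 5 higher and 4 lower, and without HADA 3 it had 6 and 3.

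Of 20 receptor genes, 4 were higher and 6 lower, beside the same 22.2% and 10.7%, with 6 and 5 on the background scale and 2 and 0 by the fold rank (limma; 4 at an unadjusted p under 0.05 by that rank). The higher ones included Il21r (1.28 ± 0.20), Il27ra (1.09 ± 0.20) and Il6st (0.94 ± 0.17), which encode receptors for interleukin-21 and interleukin-27 and the shared signalling chain of the interleukin-6 family. On the fold rank Il27ra and Il6st passed (limma adjusted p = 0.0387 and 0.0241), whereas Il21r did not, at 0.36 with an adjusted p of 0.209. The lower ones included Csf3r (-1.40 ± 0.31) and Csf2rb (-1.07 ± 0.31), receptors of myeloid growth factors, with Csf2ra at -0.90 ± 0.24. On the fold rank these 3 were near 0, with Csf2rb on the other side at 0.10. Ifngr2 (-1.10 ± 0.25) and Il10ra (-1.09 ± 0.22), for interferon-gamma and interleukin-10, were lower as well. On the fold rank neither passed, at -0.48 and -0.70 with limma adjusted p of 0.120 and 0.0588.
Of 13 target genes, 5 were higher, among them Gata3 (0.95 ± 0.17), Ccnd2 (0.84 ± 0.20) and Myc (0.83 ± 0.21), and 2 were lower, with Bcl6 at -0.86 ± 0.24, beside 22.2% and 10.7% as above. On the background scale 6 targets were higher and 0 lower, and by the fold rank 1 and 0 (limma; 5 at an unadjusted p under 0.05 by that rank). On the fold rank none of these 4 named targets passed, with adjusted p of 0.320 for Gata3, 0.153 for Ccnd2, 0.877 for Myc and 0.245 for Bcl6. These encode a T helper 2 factor, a cyclin, a growth regulator and a repressor needed in germinal centres. By the fold rank the pathway list had 5 higher and 1 lower.

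**Figure D5:**
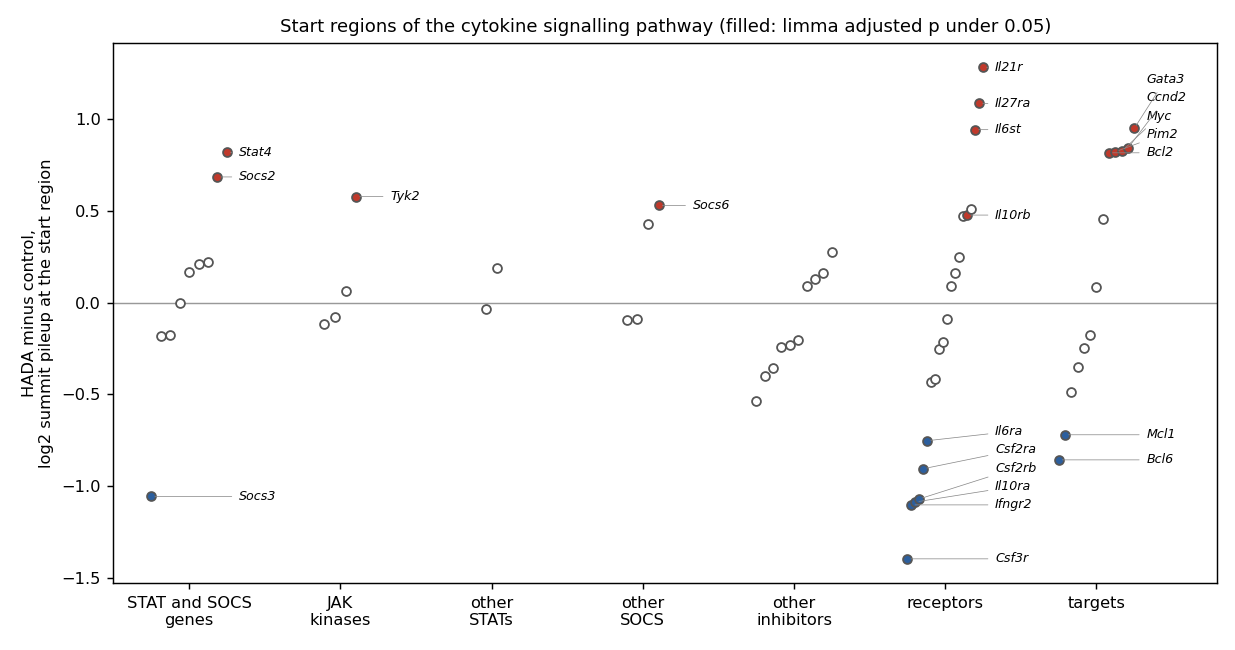
HADA minus control in log2 summit pileup (limma estimate) at the start regions of the 9 genes and of the pathway list by role; each point is a gene and filled points have an adjusted p under 0.05. Receptors spread from Csf3r at -1.40 to Il21r at 1.28, and the list of other inhibitors has no filled point.

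Markers of some blood cell types differed between the groups. No call was made at the shared start regions of regulatory T cell (2), NK cell (1) or erythroid and platelet (1) markers (limma; 0 at an unadjusted p under 0.05 by pileup, and 1, of the erythroid and platelet list, by the fold rank). All 3 B cell markers with a shared start region were higher in HADA, and the pileup over background summed across these start regions ranged from 20.8 to 99.5 in control and from 208 to 255 in HADA. The 4 neutrophil markers with one, which include Csf3r, were all lower, with sums of 88.6 to 186 in control and 33.4 to 73.5 in HADA, and so were the 4 monocyte markers, with 53.6 to 84.1 against 37.8 to 45.7. By the fold rank these calls were lost, with 0 of 3 B cell, 0 of 4 neutrophil and 0 of 4 monocyte markers passing (limma; 0, 0 and 1 at an unadjusted p under 0.05). Of 9 T cell markers 2 were higher and 1 lower, beside 22.2% and 10.7% of start regions, with 5 and 1 on the background scale and 1 and 0 by the fold rank (3 at an unadjusted p under 0.05). Control 3, with the tallest Socs3 region and the lowest Stat4 start, had the highest neutrophil and the lowest B cell sum. Of the 70 markers, 9 had no peak in any library, among them Camp of neutrophils and Hba-a1 of red cells. All 6 pan-leukocyte markers had a shared start region, of which Cd48 was higher and Laptm5 and Spi1 were lower by pileup, whereas by the fold rank 0 passed (limma; 2 at an unadjusted p under 0.05) and Spi1 was at 0.26. The part of cell composition in the differences at Stat4, Socs2, Socs3 and the receptors was not tested.

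Over all regions, the 1320 shared regions with a GAS within 100 bp of the summit were lower than those without it in every library, with medians that differed by -0.45, -0.34 and -0.46 in control and by -0.49, -0.49 and -0.51 in HADA (log2). Every HADA library was below every control library, with group means apart by -0.08 (exact permutation p = 0.1, the smallest possible). This difference was -0.04 without control 2, -0.15 for a motif within 50 bp of the summit and -0.14 for the wider spacing. Of the 1320 regions, 17% were higher and 31% lower in HADA, beside 18.6% and 24.8% of all shared regions. These shares vary with place, as shared regions within 1 kb of a start had 22.2% higher and 10.7% lower. The 1320 regions were not split by place, so whether they differ from regions placed alike was not tested. Of the 2 shared regions with the tandem, that of Socs2 was higher and that of Cish did not pass.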

How the data were processed

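ATAC-seq was measured in 3 control and 3 HADA libraries, grouped and numbered by the labels. The authors used Trimmomatic for trimming, Bowtie2 for alignment to GRCm39, Picard against duplicates and MACS2 for peaks, each library by itself, per the peak names. MACS2 options and any Tn5 shift are not given in the sources used here. Each deposited peak carries a score, a fold enrichment over local background, a −log10 p-value and a −log10 q-value. The whole-number summit pileup and local background were solved from the deposited fold and −log10 p-value, for 100% of peaks within a relative tolerance of 0.001. Total reads were not analysed here; the library background pileup, 1.69 to 2.05 in control and 1.99 to 2.34 in HADA, stands for relative depth, and peaks were called down to a pileup of 7 to 9.

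Regions, genes and starts followed GENCODE M39 on 21 main chromosomes; 0 peaks ended beyond a chromosome of that build. Log2(pileup + 1) was centred on the library's median shared region and compared with limma 3.58.1 (R 4.3.3, moderated with a trend) over all 23970 shared regions with Benjamini-Hochberg adjustment at 0.05; the fit was tested on simulated data. A gene's start region was the tallest shared region with a summit within 1 kb of a start. Single values were compared by two-sided exact permutation tests. Named regions were the start regions, those with an adjusted p under 0.05 and those called in 1 group alone, and of the pathway list the Janus kinases, Stat2 and the 6 largest called differences in each direction, with 1 further gene of the list not reported here; other regions were named after their values were seen. The members, gene lists and markers were chosen with earlier results of these data known. Alternatives were the fold rank, division by background, quantile normalization, a replicate block, other filters, pseudocount and merging, and leaving out each library.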

Additional observations from a re-analysis of the deposited data

How the results depend on the processing

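Region calls, start regions, gene levels, peak shares, counts of regions in 1 group alone and the GAS comparison were recomputed under alternatives. The ratios, marker sums and counts of regions in more libraries of 1 group were not. The Stat4 start kept its direction in all 14 alternatives and its call in 11, and Cish and Stat5a kept direction and stayed uncalled in all 14. By the fold rank the 9 genes had 1 region higher and 0 lower, all shared regions 1832 and 1396, and the pathway list 5 and 1; Socs2 turned to -0.40 and Socs3 to 0.0148, and the mean over the Stat5b regions to 0.0631. With pileups divided by background the 9 genes had 4 higher and 1 lower, all shared regions 7648 and 4286, and the pathway list 16 and 5. There Stat6 turned to 0.19, Socs1 to 0.19 and the Stat5b mean to 0.25, and Socs1 turned to 0.10 under quantile normalization. For Stat3, near 0 in the report, merging of summit windows gave -0.0190. The causes were not tested. The fold divides by a local background, which was solved from that same fold and its p-value, with the values given above for Socs2 and Socs3.

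Leaving out each library in turn gave 0 to 3 regions higher and 0 to 2 lower at the 9 genes, with 1506 to 5434 and 3100 to 6468 over all shared regions. In the pathway list it gave 5 to 14 higher and 3 to 11 lower, and 1 to 4 regions of HADA alone and 0 to 2 of control alone at the 9 genes. It moved the Stat3 start region over -0.10 to 0.10 and its gene level over -0.10 to 0.15, that of Stat5b over -0.241 to 0.00597 and that of Stat6 over -0.344 to 0.00423, both positive only without control 3. Gene levels kept the centring of all 6 libraries, whereas the fits of start regions centred the remaining libraries anew. In that fit the Stat6 start, the only shared region of the gene, stayed below 0 without control 3, at -0.045.

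With peaks held to a −log10 q of 5 or more, 3 regions of the 9 genes were in HADA alone, 2 at Socs2 and 1 at Stat6, beside 4506 of all 52472 regions. At 10 or more there were 3, at Stat3, Stat4 and Stat6, beside 4301 of 40468. With the same number of strongest peaks per list there were 2, at Socs2 and Stat6, beside 2964 of 50783. Merging of summit windows gave 1 region in HADA alone and 1 in control alone, both at Stat6, beside 4224 and 1255 of 78607.

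Equal replicate numbers were not found to pair the libraries: correlations of same-numbered deviations were -0.08, 0.08 and -0.38. With a replicate block the 9 genes had 1 region higher and 2 lower, since Socs2 was then at an adjusted p of 0.0683 by limma, and all shared regions had 3356 higher and 5864 lower. No total read counts were used, 3 libraries a group allow no exact p under 0.1, and an uncalled peak is not evidence of closed chromatin.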
